A study of Homo sapiens with 36 samples.

Results

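Cytarabine is a deoxycytidine analogue that kills dividing cells only after it has been carried into the cell and phosphorylated. The data described here are the RNA levels of 10 genes of that route, chosen by function: the transporters SLC29A1 and SLC29A2, the activating kinases DCK and CMPK1, the inactivating enzymes CDA, DCTD, SAMHD1 and NT5C2, and the ribonucleotide reductase subunits RRM1 and RRM2. They are 10 of 59041 genes measured by RNA-seq in 36 libraries. The libraries came from 3 established acute myeloid leukaemia (AML) cell lines, OCIAML3, MOLM13 and HL60, all labelled WT. Each line was exposed for 24 h to 0.1 µM cytarabine, to 0.02 µM daunorubicin (an anthracycline that blocks topoisomerase II), to both drugs together at these doses, or to the solvent DMSO, with 3 samples labelled biological replicates in each of the 12 groups. OCIAML3 cells were kept in alpha-MEM with more serum, and MOLM13 and HL60 cells in RPMI, so medium and line cannot be told apart in the comparisons of OCIAML3 with the other lines. Nothing in the labels tells whether the replicates were handled apart, for example on different days. The spread behind each p-value is that between samples of the same line and treatment, pooled over the libraries of the fit. It may be partly technical.

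Equilibrative transporters of the SLC29 family let cytarabine cross the plasma membrane. DCK adds the first phosphate, the slow step of activation, and CMPK1 turns the monophosphate into the diphosphate, after which other kinases form the triphosphate that enters DNA and halts replication. CDA deaminates cytarabine before activation, DCTD deaminates its monophosphate, NT5C2 can strip the phosphate from nucleoside monophosphates, and SAMHD1 hydrolyses the finished triphosphate. Ribonucleotide reductase makes the natural deoxynucleotides that compete with the drug, and its catalytic subunit RRM1 and its small subunit RRM2 are known as genes whose expression peaks in S phase of the cell cycle.

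The promoters of 4 of the genes that were lower in MOLM13 cells after daunorubicin are printed because S phase genes are often reached through E2F, CCAAT or CHR elements. Each is 300 bases of RefSeq GRCh38.p14 on the + strand, from 250 bases before the annotated start to 50 bases from it on, 9 of the 10 genes had such an entry, and matches are in capitals.
DCK, chr4:70993399-70993698: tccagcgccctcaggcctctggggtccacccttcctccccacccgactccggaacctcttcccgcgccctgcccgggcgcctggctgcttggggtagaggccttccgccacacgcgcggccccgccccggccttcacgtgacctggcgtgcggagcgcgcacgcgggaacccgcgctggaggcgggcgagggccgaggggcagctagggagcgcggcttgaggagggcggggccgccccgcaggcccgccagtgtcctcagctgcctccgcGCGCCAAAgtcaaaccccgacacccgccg
RRM1, chr11:4094435-4094734: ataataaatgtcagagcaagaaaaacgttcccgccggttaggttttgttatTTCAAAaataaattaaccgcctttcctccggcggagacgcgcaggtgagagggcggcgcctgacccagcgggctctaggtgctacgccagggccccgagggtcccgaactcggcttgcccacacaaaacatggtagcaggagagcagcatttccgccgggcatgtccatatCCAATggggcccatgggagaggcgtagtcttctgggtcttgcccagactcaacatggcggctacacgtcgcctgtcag
RRM2, chr2:10122489-10122788: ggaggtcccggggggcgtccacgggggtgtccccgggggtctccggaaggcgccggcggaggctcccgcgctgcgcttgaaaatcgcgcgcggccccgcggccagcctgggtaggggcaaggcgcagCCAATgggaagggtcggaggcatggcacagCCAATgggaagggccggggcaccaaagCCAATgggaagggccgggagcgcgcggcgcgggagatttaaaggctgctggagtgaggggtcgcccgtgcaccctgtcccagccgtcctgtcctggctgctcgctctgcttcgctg
SLC29A1, chr6:44223345-44223644: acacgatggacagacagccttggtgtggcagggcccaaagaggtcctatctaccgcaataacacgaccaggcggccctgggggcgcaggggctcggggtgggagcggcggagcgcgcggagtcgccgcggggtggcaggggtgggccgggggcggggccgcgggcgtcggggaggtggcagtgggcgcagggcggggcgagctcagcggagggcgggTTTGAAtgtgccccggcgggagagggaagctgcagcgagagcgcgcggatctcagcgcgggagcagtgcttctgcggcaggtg
The words searched on both strands were TTTCCCGC, TTTGGCGC, TTTCGCGC and TTTGCCGC for an E2F site, CCAAT for a CCAAT box and TTTGAA for a CHR element, and none overlaps another in these windows. An E2F word is in 3.31% of 35116 promoter windows, CCAAT in 34.6% and TTTGAA in 15.2%. DCK holds TTTGGCGC on the − strand 21 bases after its start, and the capitals show its complement. RRM2 holds CCAAT 3 times in the window shown and once in its other window, chr2:10122318-10122617. RRM1 holds CCAAT once, 28 bases before the start. RRM1 also holds TTTGAA on the − strand, well before its CCAAT, at bases 52 to 57 of the window. SLC29A1 holds TTTGAA 33 bases before the start shown, and none of the words in its other window, chr6:44219365-44219664. Among the other genes CDA holds TTTCCCGC across its start, SAMHD1 holds CCAAT 2 times and NT5C2 holds TTTGAA in 2 of its windows. CMPK1 and DCTD hold none of the words. A match describes letters and not a bound site.

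Estimated counts per library totalled 27789707 to 47322144 in OCIAML3, 25067734 to 37481014 in MOLM13 and 29132492 to 38002008 in HL60. Levels are given as CPM, a gene's share of a library's counts scaled to a fixed total, after a normalization over all 36 libraries, and as TPM, which is per length, wherever 2 genes are compared. The summed CPM of 12 myeloid markers lay between 1376 and 12300 over the 36 libraries, against at most 1.91 for 5 T cell, 15.9 for 5 B cell, 0.399 for 4 erythroid and 15.4 for 5 epithelial and stromal markers. Within the myeloid list, DMSO-treated cells held ELANE, a neutrophil elastase, at 672 to 741 CPM in OCIAML3, at 1630 to 1688 CPM in MOLM13 and at 0.0371 to 0.332 CPM in HL60, and MPO, the granule peroxidase, at 1.87 to 2.48, 50.02 to 58.6 and 3043 to 3783 CPM in the same order. In OCIAML3 3 libraries lay away from the others of their groups. On a score over 5321 genes outside the 10, in which DMSO replicates 1 and 2 average 0 and daunorubicin replicates 1 and 2 average 1, the library labelled cytarabine replicate 3 was at 0.473, against 0.117 and 0.100 for the other cytarabine libraries. The library labelled combination replicate 3 was at 0.0200, against 1.07 and 0.883 for the other combination libraries. Daunorubicin replicate 3, which did not enter the score, was at 0.475, against 1.11 and 0.892 for the 2 daunorubicin libraries that define it. OCIAML3 results are given with and without the 2 libraries labelled cytarabine replicate 3 and combination replicate 3, a fit that still holds daunorubicin replicate 3, and the calls also without all 3, a fit chosen after seeing the data. Combination replicate 3 is the combination library with the lowest score, so leaving it out selects on the treatment response. Combination calls made without it are not independent of that choice. Cytarabine replicate 3 is the cytarabine library with the highest score. The lack of cytarabine calls in fits without it is likewise not independent of leaving it out.

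The first comparison asked how the lines differ before any drug. In DMSO, OCIAML3 cells had the highest SAMHD1, the lowest SLC29A2 and the lowest RRM2 of the 3 lines, and DCK differed by less than a log2 step of 0.5. With edgeR's quasi-likelihood test, a difference is said to pass when its false discovery rate (Benjamini-Hochberg) is under 0.05 and to be called when its log2 size is also over 1. Against HL60, 4 of the 10 genes were called in OCIAML3, where 38.3% of all 16532 genes tested were called. Against MOLM13, 3 were called in OCIAML3, where 30.9% of all genes were. Between MOLM13 and HL60, 1 was called, where 30.6% of all genes were. The median log2 difference of the 10 genes was −0.33, −0.14 and −0.23 in these comparisons, beside 0.09, 0.01 and 0.03 over all genes.

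SAMHD1, on chromosome 20 at 36890229 to 36951893 of GRCh38, had 349, 368 and 345 CPM in OCIAML3, 98.1, 105 and 106 CPM in MOLM13 and 47.7, 58.5 and 48.3 CPM in HL60. The 3 lines did not overlap. The log2 difference was 2.81 (SE 0.08) for OCIAML3 over HL60 (edgeR adjusted p = 1.4e-10), 1.83 (SE 0.08) for OCIAML3 over MOLM13 (adjusted p = 5.4e-09) and 0.99 (SE 0.08) for MOLM13 over HL60 (adjusted p = 8.1e-07), the last just under the size needed for a call. SLC29A2, on chromosome 11 at 66362521 to 66372214, had 1.45, 1.05 and 1.43 CPM in OCIAML3, 65.9, 50.5 and 68.5 CPM in MOLM13 and 65.7, 84.2 and 85.7 CPM in HL60. Every OCIAML3 library lay far below every other. The log2 difference was −5.90 (SE 0.19) for OCIAML3 over HL60 (edgeR adjusted p = 2.2e-10) and −5.53 (SE 0.19) for OCIAML3 over MOLM13 (adjusted p = 7.9e-10). SLC29A1, the transporter usually held to carry most cytarabine, on chromosome 6 at 44219553 to 44234142, had 160, 171 and 168 CPM in OCIAML3, 218, 180 and 208 CPM in MOLM13 and 233, 224 and 252 CPM in HL60, with log2 differences of −0.48 for OCIAML3 over HL60 and −0.23 for OCIAML3 over MOLM13 that passed but were not called.

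RRM2, on chromosome 2 at 10120698 to 10211725, had 211, 219 and 223 CPM in OCIAML3, 386, 419 and 362 CPM in MOLM13 and 672, 587 and 581 CPM in HL60. The order OCIAML3, MOLM13, HL60 held without overlap, with a called log2 difference of −1.46 (SE 0.08) for OCIAML3 over HL60 (edgeR adjusted p = 9.7e-09), and smaller ones of −0.79 for OCIAML3 over MOLM13 and −0.67 for MOLM13 over HL60 that passed. RRM1, on chromosome 11 at 4094707 to 4138932, had 220, 236 and 240 CPM in OCIAML3, 239, 273 and 226 CPM in MOLM13 and 212, 192 and 194 CPM in HL60, and so differed much less than its partner subunit. DCK, on chromosome 4 at 70992538 to 71030914, had 65.6, 67.2 and 69.9 CPM in OCIAML3, 82.4, 76.6 and 80.1 CPM in MOLM13 and 98.2, 90.5 and 88.0 CPM in HL60. It was lowest in OCIAML3 with no overlap, at log2 differences of −0.42 from HL60 (edgeR adjusted p = 8.7e-05) and −0.19 from MOLM13 (adjusted p = 0.018).

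CDA, on chromosome 1 at 20589086 to 20618903, was scarce everywhere, with at most 101 counts in any library and under 10 counts in 13 of 36. In DMSO it had 2.36, 1.797 and 1.78 CPM in OCIAML3, 0.181, 0.553 and 0.141 CPM in MOLM13 and 0, 0.0335 and 0.0995 CPM in HL60. The HL60 libraries hold 0, 1 and 3 counts, so a fitted fold against them depends on the prior count. The ratio of summed normalized counts was 42.6 (95% exact counting interval 16.4 to 158) for OCIAML3 over HL60, 6.66 (4.39 to 10.5) for OCIAML3 over MOLM13 and 6.39 (2.21 to 25.3) for MOLM13 over HL60, intervals that cover counting error only. All 3 differences were called by edgeR (adjusted p = 2.0e-05, 0.00054 and 0.015 in the same order), and the last was no longer called without MOLM13 DMSO replicate 2 (log2 1.71, adjusted p = 0.083), while SAMHD1 was called there without MOLM13 DMSO replicate 1 (1.03) or HL60 DMSO replicate 2 (1.09). The other 3 genes differed by less. CMPK1, on chromosome 1 at 47333790 to 47394866, was lower than in HL60 by 0.50 in OCIAML3 and by 0.41 in MOLM13 on the log2 scale. DCTD, on chromosome 4 at 182890060 to 182917936, was higher in OCIAML3 than in MOLM13 by a log2 difference of 0.51, and NT5C2, on chromosome 10 at 103087185 to 103277605, was lower by 0.60.

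**Figure D1:**
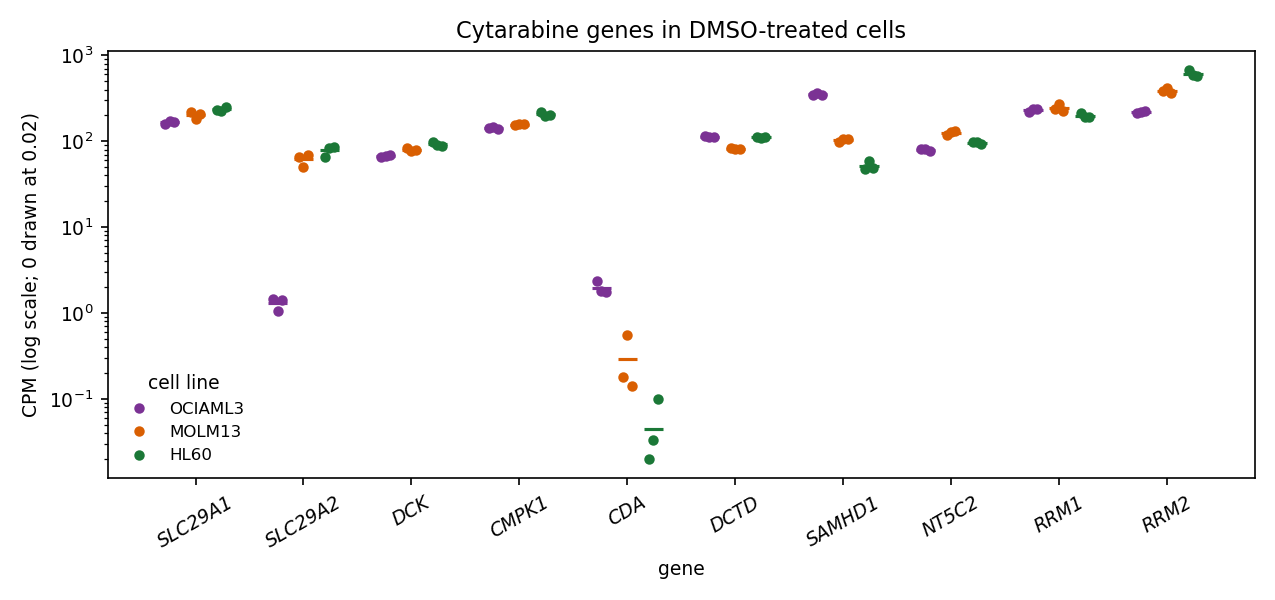
CPM on a log axis of the 10 genes (x axis) in DMSO-treated cells, with a point for each library, a bar for the mean of 3 libraries and colours for OCIAML3, MOLM13 and HL60 from left to right. SLC29A2 is near 1 CPM in OCIAML3 and between 50.5 and 85.7 CPM in the other lines, and SAMHD1 runs the other way, at 345 to 368 CPM in OCIAML3.

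Per length, the order of the genes differed between lines. In OCIAML3 the mean TPM ran SLC29A1 (148 ± 6.3, SD, n = 3), RRM2 (136), RRM1 (129), DCTD (117), SAMHD1 (117), CMPK1 (83.7), DCK (47.1), NT5C2 (42.0), CDA (5.02) and SLC29A2 (0.808). The first 3 of these overlapped neighbour by neighbour, as did DCTD and SAMHD1. In MOLM13 RRM2 led at 198 ± 15 TPM (SD, n = 3), and SAMHD1 at 29.97 TPM overlapped SLC29A2 at 30.4 TPM near the bottom of the order. In HL60 RRM2 led at 306 ± 6.3 TPM (SD, n = 3), SLC29A1 followed at 169 TPM, and SAMHD1 at 13.5 TPM stood above CDA alone. The log2 ratio of DCK to SAMHD1 within a library was −1.35, −1.36 and −1.23 in OCIAML3, 0.72, 0.57 and 0.52 in MOLM13 and 2.25, 1.64 and 1.96 in HL60. RNA of the kinase that starts activation was thus below that of the triphosphate hydrolase in OCIAML3 and above it in MOLM13 and HL60. The log2 ratio of RRM2 to RRM1 averaged 0.07 ± 0.09 in OCIAML3, 0.75 ± 0.05 in MOLM13 and 1.88 ± 0.02 in HL60 (SD, n = 3 each). An exact permutation test of 3 against 3 cannot go below p = 0.1, which each of these line pairs reached, so the ratios are a description.

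The 3 treatments of a line were each compared with the same 3 DMSO libraries, so they are not independent of each other. In OCIAML3, none of the 10 genes passed after cytarabine, in any of these fits. With all libraries edgeR called 0 of 10 genes after cytarabine, daunorubicin or the combination, where 0% of 16650 genes were called in each case, while 0, 6 and 1 of the 10 had an unadjusted p under 0.05 and DESeq2 also called 0. Without the 2 libraries labelled cytarabine replicate 3 and combination replicate 3, 0 of 10 were called after cytarabine (0% of 16891 genes), with an adjusted p of 1 for each gene and 0 at an unadjusted p under 0.05. There 1 of 10 was called after daunorubicin, where 4.15% of all genes were, and 2 of 10 after the combination, where 7.86% were, all of them lower (0.539% and 1.96% of genes called lower). Fits without these libraries leave 2 libraries each in the cytarabine and combination groups, and the spread is pooled over the line. Without daunorubicin replicate 3 as well, 0, 1 and 2 of 10 were called after the same 3 treatments, with RRM2 at a log2 fold change of −1.16 after daunorubicin (edgeR adjusted p = 8.2e-05) and −1.45 after the combination (adjusted p = 2.3e-05), and SLC29A1 at −1.03 after the combination (adjusted p = 3.0e-04).

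RRM2 in OCIAML3 had 92.5, 104 and 116 CPM after daunorubicin, against 211, 219 and 223 CPM in DMSO. Treated and DMSO libraries did not overlap. The log2 fold change was −1.08 with all libraries (SE 0.41, edgeR adjusted p = 0.13) and −1.08 without the 2 (SE 0.10, adjusted p = 0.00055). After the combination it had 70.7, 91.0 and 253 CPM, the last in combination replicate 3, with a log2 fold change of −0.67 (SE 0.41, adjusted p = 0.30) with all libraries and −1.47 (SE 0.12, adjusted p = 0.00025) without the 2. SLC29A1 likewise had 68.3, 96.4 and 172 CPM after the combination, against 160, 171 and 168 CPM in DMSO, and a log2 fold change of −0.58 (adjusted p = 0.22) with all libraries and −1.05 (SE 0.15, adjusted p = 0.00083) without the 2. Leaving out combination replicate 3 alone gave the call for RRM2 after daunorubicin (−1.07, edgeR adjusted p = 0.0099) and after the combination (−1.45, adjusted p = 0.0022) and for SLC29A1 after the combination (−1.03, adjusted p = 0.0021). RRM1 had 143, 163 and 172 CPM after daunorubicin, against 220, 236 and 240 CPM in DMSO, and fell without the 2 libraries by 0.56 on the log2 scale (SE 0.10, edgeR adjusted p = 0.0039). DCK fell by 0.33 after daunorubicin and by 0.36 after the combination in that fit, and SAMHD1 rose by 0.29 and 0.25, sizes under the call. After cytarabine, RRM2 had 240, 248 and 127 CPM, the last in cytarabine replicate 3. The summed CPM of 15 S phase genes outside the 10 was 3099, 3258 and 2601 with cytarabine, 2068, 2378 and 2473 with daunorubicin and 1667, 2189 and 3444 with both drugs, against 2967, 3174 and 3280 in DMSO. It moved with RRM2 library by library, and its part in the RRM2, RRM1 and DCK values was not tested. In bulk RNA, fewer cells in S phase and less RNA of these genes in each cell cannot be told apart.

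In MOLM13, RNA of both transporters, DCK and both reductase subunits was lower after daunorubicin and the combination, while that of SAMHD1 was higher. The RNA is that of whole cultures after 24 h, and cell death in them was not part of these data. After daunorubicin edgeR called 6 of 10 genes, 5 lower and 1 higher, where 17% of 16184 genes were called, 5.71% lower and 11.3% higher. After the combination it called 5, all lower, where 17.4% of genes were called, 5.61% lower and 11.8% higher, and 3 without combination replicate 3. After cytarabine it called 0 (8.13% of genes, 7.11% higher and 1.03% lower), with 4 at an unadjusted p under 0.05 and 0 called by DESeq2. Whatever the size, 1 gene rose and 2 fell with cytarabine (34.9% of genes passed, 17.1% higher and 17.8% lower), 1 rose and 7 fell with daunorubicin (52.7%, 26.9% higher and 25.7% lower) and 1 rose and 7 fell with both drugs (53.1%, 27% higher and 26% lower). The median log2 fold change of the 10 genes was 0.10 with cytarabine, −0.99 with daunorubicin and −0.67 with both drugs, beside 0.02, 0.07 and 0.07 over all genes.

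SLC29A1 in MOLM13 had 32.5, 23.6 and 49.0 CPM after daunorubicin and 67.6, 25.7 and 22.8 CPM after the combination, against 218, 180 and 208 CPM in DMSO. Every library of the 2 treatments lay below every DMSO library. The log2 fold change was −2.50 (SE 0.37, edgeR adjusted p = 0.00021) after daunorubicin and −2.36 (SE 0.37, adjusted p = 0.0003) after the combination. After cytarabine SLC29A1 had 110, 138 and 121 CPM, also below DMSO in each library, at a log2 fold change of −0.71 that did not pass (SE 0.35, adjusted p = 0.14). SLC29A2 had 32.5, 34.5 and 40.0 CPM with cytarabine, 21.8, 21.9 and 28.8 CPM with daunorubicin and 32.9, 21.3 and 22.6 CPM with both drugs, against 65.9, 50.5 and 68.5 CPM in DMSO. It fell after all 3 treatments, by 0.79 (SE 0.18, edgeR adjusted p = 0.0049), 1.32 (SE 0.18, adjusted p = 1.0e-04) and 1.24 (SE 0.18, adjusted p = 0.00016) on the log2 scale.

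DCK had 39.9, 31.6 and 42.7 CPM after daunorubicin and 48.8, 31.2 and 34.0 CPM after the combination, against 82.4, 76.6 and 80.1 CPM in DMSO. It fell by 1.04 on the log2 scale after either (SE 0.16, edgeR adjusted p = 0.00024 and 0.00023), sizes so near 1 that leaving out 1 treated library moved them to between −0.94 and −0.99 and out of the call (daunorubicin replicate 2, combination replicate 2 or combination replicate 3). Cytarabine alone left it at 76.9, 89.6 and 71.0 CPM, a log2 fold change of −0.01 (SE 0.16). The kinase of the next step, CMPK1, had 125, 128 and 132 CPM after daunorubicin, against 154, 158 and 158 CPM in DMSO, a fall of 0.26 on the log2 scale that passed and was not called.

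RRM2 in MOLM13 had 63.5, 19.0 and 97.7 CPM after daunorubicin, against 386, 419 and 362 CPM in DMSO, and fell by 2.67 on the log2 scale (SE 0.75, edgeR adjusted p = 0.011). After the combination it had 182, 17.3 and 34.1 CPM and fell by 2.31 (SE 0.74, adjusted p = 0.021), a call lost without combination replicate 3 (−1.96, adjusted p = 0.079). The treated libraries all lay below DMSO but differed widely among themselves, with daunorubicin replicate 2 and combination replicate 2 lowest. RRM1 showed the same libraries lowest, at 74.7, 34.4 and 101 CPM after daunorubicin and 127, 30.8 and 44.9 CPM after the combination, against 239, 273 and 226 CPM in DMSO, with log2 fold changes of −1.79 (SE 0.47, edgeR adjusted p = 0.0076) and −1.84 (SE 0.47, adjusted p = 0.0064). After cytarabine RRM2 had 440, 628 and 425 CPM and RRM1 264, 366 and 264 CPM, and neither passed. The summed CPM of the 15 S phase genes moved with these 2 subunits after daunorubicin and the combination. It was 1207, 598 and 1540 with daunorubicin and 1769, 571 and 717 with both drugs, against 3691, 3355 and 3426 in DMSO, and its part in the fall of DCK, RRM1 and RRM2 was not tested. With cytarabine the sum was 2991, 3570 and 3055, with replicates 1 and 3 below every DMSO library, while every RRM2 library lay above DMSO.

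SAMHD1 was the one member that passed as higher in MOLM13 after every treatment. It had 188, 147 and 173 CPM with cytarabine, 225, 199 and 190 CPM with daunorubicin and 209, 170 and 201 CPM with both drugs, against 98.1, 105 and 106 CPM in DMSO. No treated library overlapped DMSO. The log2 fold change was 0.72 (SE 0.10, edgeR adjusted p = 0.00035) with cytarabine, 1.02 (SE 0.10, adjusted p = 1.8e-05) with daunorubicin and 0.93 (SE 0.10, adjusted p = 3.0e-05) with both. The daunorubicin call rests on a size at the threshold. It was 0.92 without daunorubicin replicate 1, 0.98 without DMSO replicate 1, 0.99 without any 1 combination library, and 0.98 to 0.99 under DESeq2, RLE normalization, no filter on low counts or a fit of all 36 libraries. DCTD fell by 0.20, 0.32 and 0.29 on the log2 scale after cytarabine, daunorubicin and the combination, and NT5C2 and CDA did not pass.

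In HL60, cytarabine and the combination raised RRM2, RRM1 and CDA and lowered both transporters, and daunorubicin alone left all but SAMHD1 without a passing change. After cytarabine edgeR called 1 of 10 genes, where 16.9% of 15608 genes were called, 13.7% higher and 3.12% lower. After the combination it called 3, 2 higher and 1 lower, where 23.3% of genes were called, 17% higher and 6.29% lower. After daunorubicin it called 0 (7.3% of genes, 6.76% higher and 0.538% lower), with 2 at an unadjusted p under 0.05 and 1 called by DESeq2. At the false discovery rate alone, 4 rose and 3 fell with cytarabine (45.6% of genes passed, 23.6% higher and 22% lower), 1 rose with daunorubicin (21.9%, 12.8% higher and 9.14% lower) and 5 rose and 3 fell with both drugs (53.3%, 28.1% higher and 25.3% lower). The median log2 fold change of the 10 was −0.01, 0.09 and 0.06 in the order cytarabine, daunorubicin, combination, beside 0.01, 0.01 and 0.04 over all genes.

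RRM2 in HL60 had 1270, 1061 and 1370 CPM after cytarabine and 1543, 1496 and 1529 CPM after the combination, against 672, 587 and 581 CPM in DMSO. Both groups lay wholly above DMSO. It rose by a log2 fold change of 0.96 after cytarabine (SE 0.11, edgeR adjusted p = 2.5e-05), just under the call, which it reached without DMSO replicate 1 (1.02) or cytarabine replicate 2 (1.05), and of 1.25 after the combination (SE 0.11, adjusted p = 1.9e-06). After daunorubicin it had 733, 780 and 625 CPM, a log2 fold change of 0.19 that did not pass (adjusted p = 0.23). RRM1 had 242, 260 and 296 CPM after cytarabine and 273, 269 and 328 CPM after the combination, against 212, 192 and 194 CPM in DMSO, and rose by 0.37 (SE 0.11, edgeR adjusted p = 0.012) and 0.48 (SE 0.11, adjusted p = 0.0016). The summed CPM of the 15 S phase genes was 3789 to 4092 after cytarabine, 3778 to 4097 after the combination and 3588 to 4121 in DMSO, ranges that overlap, although single genes moved both ways. With cytarabine 7 of the 15 passed as higher and 3 as lower, beside 23.6% and 22% of all genes.

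SLC29A2 had 43.5, 37.2 and 44.2 CPM after cytarabine and 38.9, 25.9 and 37.0 CPM after the combination, against 65.7, 84.2 and 85.7 CPM in DMSO. It fell by 0.97 on the log2 scale (SE 0.17, edgeR adjusted p = 0.00052), a call without DMSO replicate 1 (−1.09) or cytarabine replicate 3 (−1.01), and by 1.27 (SE 0.17, adjusted p = 4.2e-05). SLC29A1 fell by 0.40 after cytarabine and by 0.72 after the combination, to 162, 120 and 164 CPM after the combination, against 233, 224 and 252 CPM in DMSO. DCK had 113, 122 and 125 CPM after the combination, against 98.2, 90.5 and 88.0 CPM in DMSO, and rose by 0.32 on the log2 scale (SE 0.09, edgeR adjusted p = 0.012), the opposite side of DMSO from MOLM13. CMPK1 fell by 0.37 after cytarabine and by 0.48 after the combination.

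CDA in HL60 had 28, 44 and 18 counts after cytarabine and 40, 70 and 19 counts after the combination, against 0, 1 and 3 counts in DMSO. The ratio of summed normalized counts was 20.2 (95% exact counting interval 7.62 to 75.7) after cytarabine and 26.0 (9.91 to 96.9) after the combination, and both changes were called by edgeR (fitted log2 4.20 and 4.50, SE 0.85 and 0.84, adjusted p = 0.0013 and 0.00053). After daunorubicin CDA had 7, 17 and 2 counts, a ratio of 6.14 (2.13 to 24.2). That change was not called (log2 2.45, edgeR adjusted p = 0.073), but it was with the replicate number as a block (log2 2.28, adjusted p = 0.036) and without daunorubicin replicate 3 (2.88, adjusted p = 0.032). Even after the combination CDA reached only 0.600 to 1.78 CPM, below or at its 1.78 to 2.36 CPM in DMSO-treated OCIAML3. SAMHD1 rose after each treatment. It had 61.8, 87.1 and 65.8 CPM with cytarabine, 69.6, 91.8 and 70.4 CPM with daunorubicin and 63.6, 80.4 and 79.4 CPM after the combination, against 47.7, 58.5 and 48.3 CPM in DMSO, at log2 fold changes of 0.42, 0.56 and 0.47 that passed and were not called. Several marker lists, myeloid and of other cell types, moved in HL60 as well. The summed CPM of the 12 myeloid markers was 1941 to 2514 after cytarabine and 1376 to 1714 after the combination, against 5130 to 6820 in DMSO, and within that sum MPO was at 1031, 1271 and 1520 CPM with cytarabine and 713, 478 and 851 CPM with both drugs, against 3043, 3783 and 3496 CPM in DMSO. PRTN3, a granule protease, fell as well, but the list did not move one way. Of 9 myeloid markers tested, 3 were called higher and 2 lower with cytarabine, 0 with daunorubicin and 3 each way with both drugs, and PTPRC, the pan-leukocyte CD45, had 204, 222 and 150 CPM with cytarabine, against 102, 83.6 and 65.1 CPM in DMSO. The summed CPM of 5 B cell markers was 14.1 to 14.99 with cytarabine, 8.60 to 13.8 with daunorubicin and 14.97 to 15.9 with both drugs, against 3.42 to 3.65 in DMSO, while the T cell sum reached at most 1.68 CPM and the erythroid sum 0.0359 CPM in HL60. The epithelial and stromal sum was 1.91 to 2.75 with cytarabine, 0.665 to 1.57 with daunorubicin and 2.58 to 2.67 with both drugs, against 0.0371 to 0.268 in DMSO. Their part in the changes of the 10 genes was not tested.

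**Figure D2:**
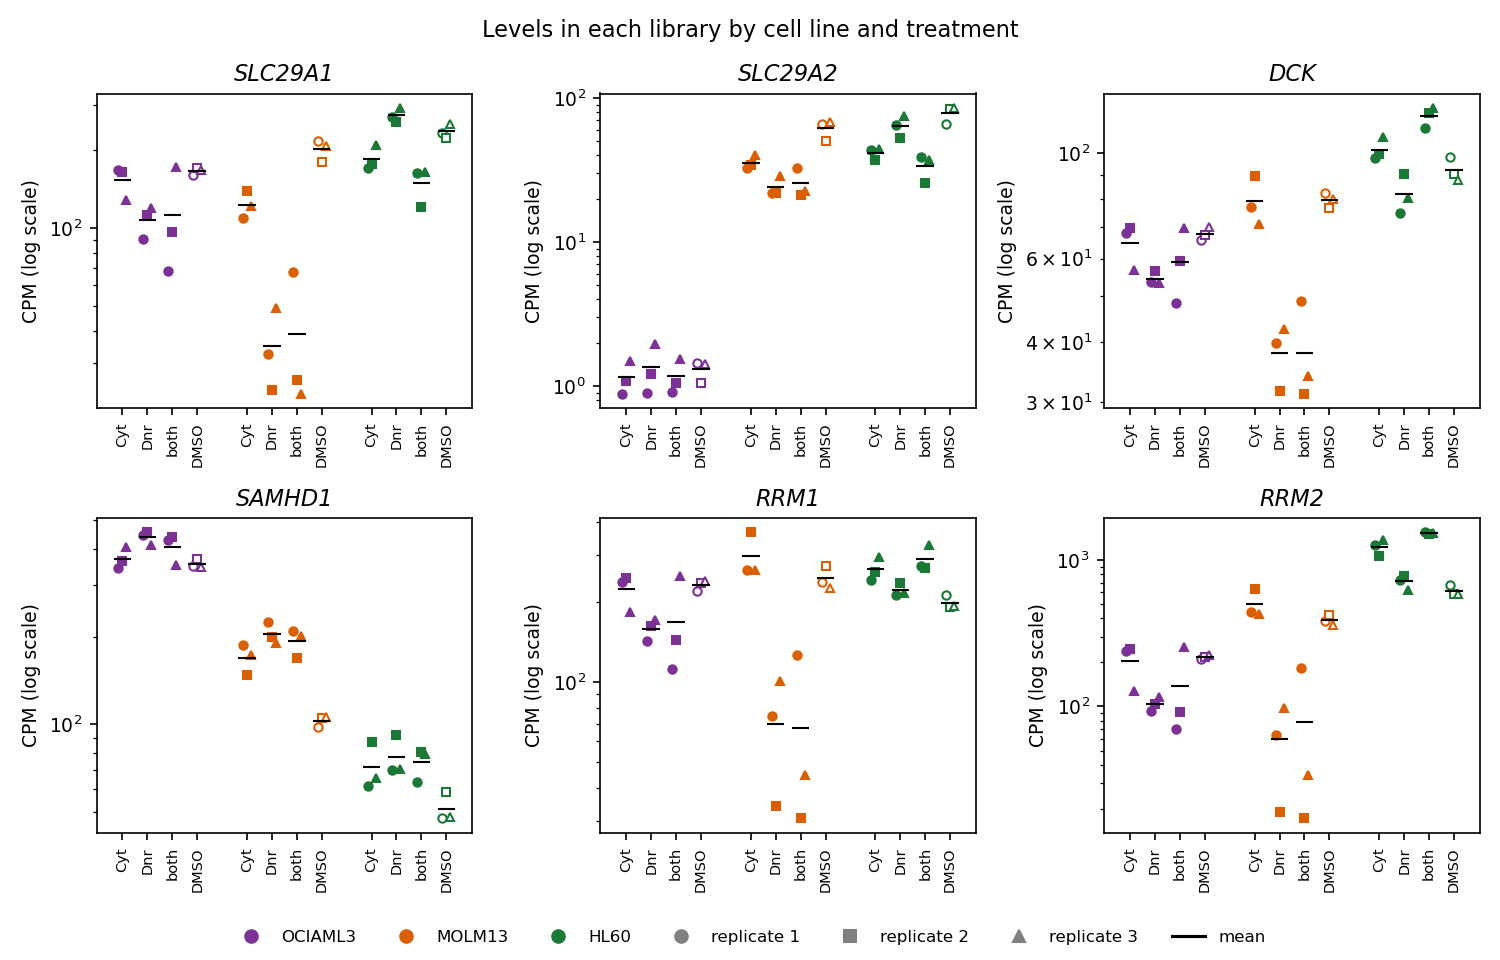
CPM on a log axis of 6 genes, with a point for each library (shape for the replicate, colour for the line, open for DMSO), a bar for the mean, and the groups cytarabine (Cyt), daunorubicin (Dnr), both drugs and DMSO from left to right within each line. In MOLM13 the daunorubicin and combination libraries of SLC29A1, DCK, RRM1 and RRM2 all lie below DMSO, and in HL60 the cytarabine and combination libraries of RRM2 lie at 1061 to 1543 CPM, above DMSO.

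**Figure D3:**
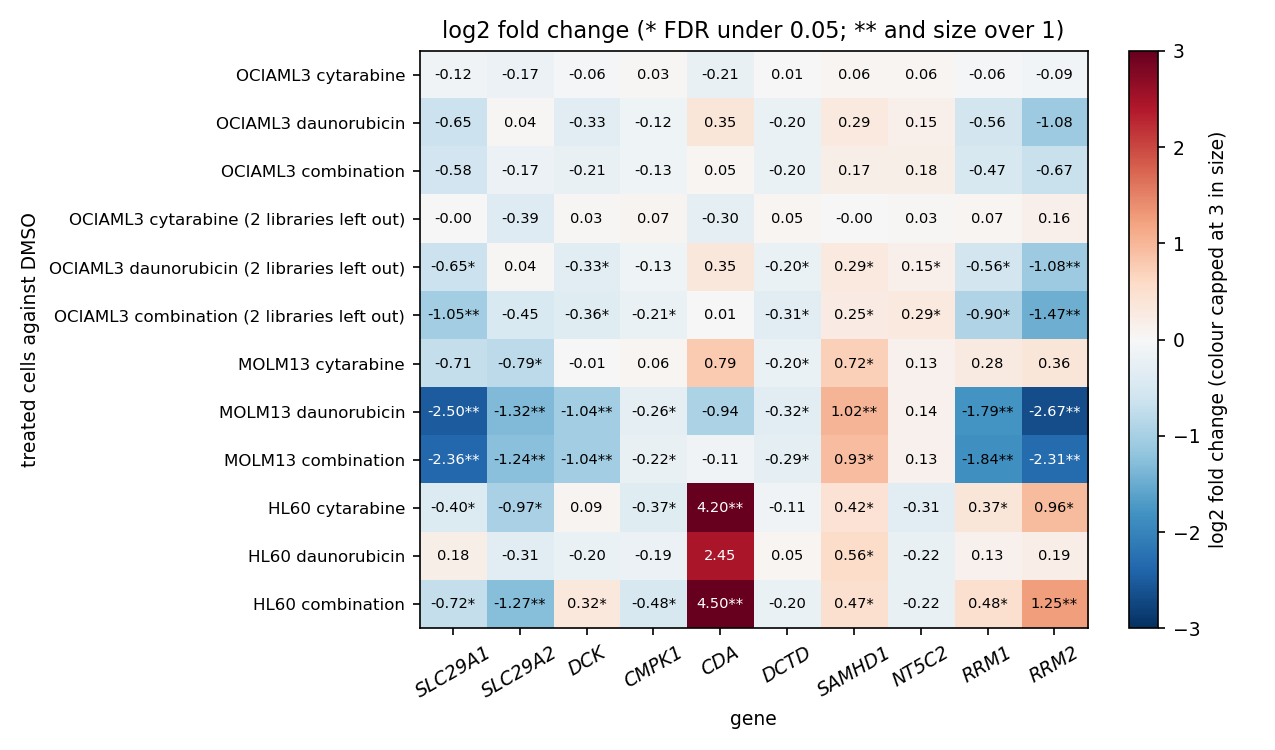
Log2 fold change of each treatment against DMSO (rows) for the 10 genes (columns), red for higher and blue for lower, with 1 star for an adjusted p under 0.05 and 2 stars where the size is also over 1. OCIAML3 is drawn with all libraries and with 2 left out, and RRM2 runs between −2.67 in MOLM13 and 1.25 in HL60.

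The effects themselves were compared between lines as interactions over all 36 libraries, called at a false discovery rate under 0.05 alone. After daunorubicin, 7 of 10 genes were lower in MOLM13 than in HL60 relative to DMSO, where 20.5% of 19053 genes differed and 13.9% in that direction. They included RRM2 at a log2 difference of −2.91 (SE 0.75, edgeR adjusted p = 0.006), SLC29A1 at −2.73 (SE 0.42, adjusted p = 5.1e-05) and DCK at −0.90 (SE 0.19, adjusted p = 0.0012). After the combination 5 differed between MOLM13 and HL60 (27.4% of genes), with RRM2 at −3.63 (SE 0.76, adjusted p = 0.00055), RRM1 at −2.40 (SE 0.48, adjusted p = 0.00033) and DCK at −1.44 (SE 0.19, adjusted p = 1.6e-06). After cytarabine 2 differed between these lines (8.38% of genes), CMPK1 at 0.38 and CDA at −3.44.

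For OCIAML3 the cytarabine effect differed from HL60 in 2 genes (23.1% of genes), CMPK1 at 0.35 (SE 0.09, edgeR adjusted p = 0.0073) and CDA at −4.45 (SE 0.93, adjusted p = 0.00078), and from MOLM13 in 1 (4.56%), SAMHD1 at −0.65 (SE 0.18, adjusted p = 0.035), which no longer passed on leaving out, one at a time, 9 of the libraries of these lines. Without the 2 libraries these counts were also 2 (24.2%) and 1 (9.3%). The daunorubicin effect differed from MOLM13 in 4 genes (10.8%), with SLC29A1 at 1.89 (SE 0.41, adjusted p = 0.0051), and likewise in 4 without the 2 libraries (13.1%), but in 3 without all 3, where SLC29A2 no longer passed (1.08, adjusted p = 0.052). It differed from HL60 in 0 genes by edgeR and by DESeq2 (5.21%), with 4 at an unadjusted p under 0.05, and in 0 without the 2 libraries (6.85%). The combination effect differed from HL60 in 5 genes (26.7%) and from MOLM13 in 5 (12.2%), counts that were 6 (24.6%) and 3 (6.77%) without the 2 libraries, and 6 and 3 without all 3.

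**Figure D4:**
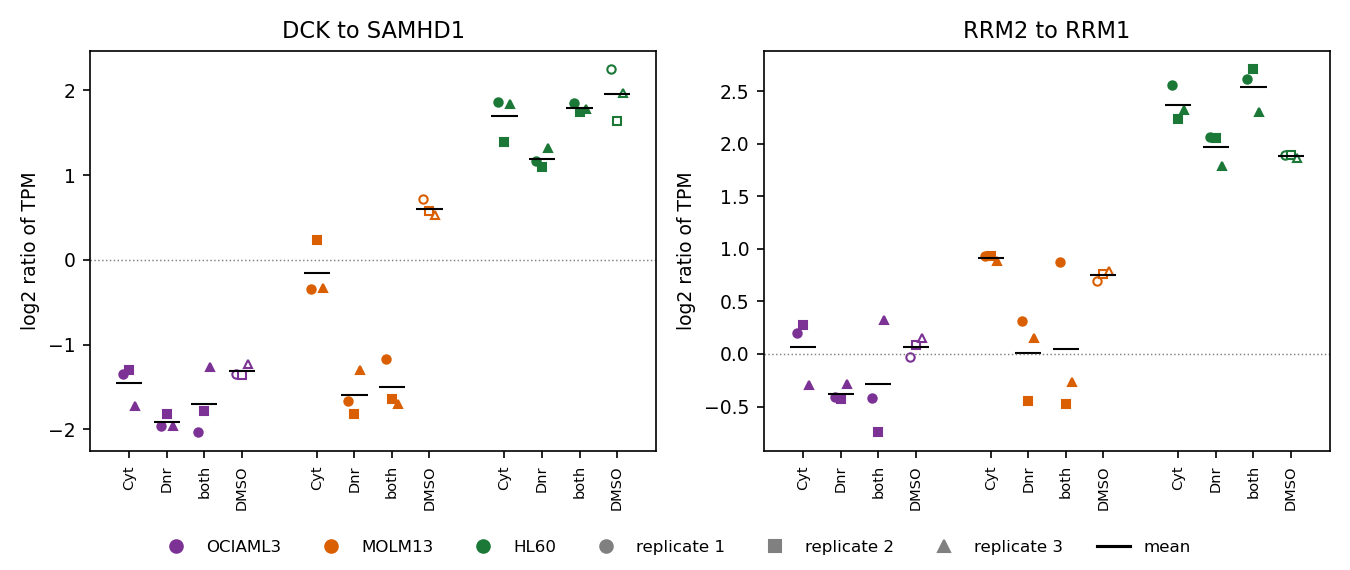
Log2 ratio of TPM within each library for DCK to SAMHD1 (left) and RRM2 to RRM1 (right), with a point for each library, a bar for the mean, and groups in the order cytarabine (Cyt), daunorubicin (Dnr), both drugs and DMSO within each line. A value of 0 is equal TPM. DCK to SAMHD1 is below 0 in all OCIAML3 libraries and in the MOLM13 libraries after daunorubicin and the combination, and above 0 in all HL60 libraries.

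Within a library, the balance of DCK and SAMHD1 in MOLM13 moved towards SAMHD1 after each treatment. It lay on the OCIAML3 side of equality in every daunorubicin and combination library, and in cytarabine replicates 1 and 3. The log2 ratio was −0.35, 0.23 and −0.34 with cytarabine, −1.67, −1.82 and −1.30 with daunorubicin and −1.17, −1.65 and −1.70 with both drugs, against 0.72, 0.57 and 0.52 in DMSO. No treated library overlapped DMSO, and the exact permutation p was 0.1 in each case, the smallest that 3 against 3 allows. In HL60 it averaged 1.70 ± 0.26 with cytarabine, 1.19 ± 0.11 with daunorubicin and 1.79 ± 0.05 with both drugs, against 1.95 ± 0.31 in DMSO (SD, n = 3 each). The log2 ratio of RRM2 to RRM1 in HL60 was 2.55, 2.23 and 2.32 after cytarabine and 2.61, 2.71 and 2.30 after the combination, against 1.89, 1.89 and 1.86 in DMSO.

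Other genes of nucleotide metabolism were counted from lists. In HL60 3 of 12 other nucleoside and nucleotide kinases were called higher after cytarabine (13.7% of all genes), namely CMPK2, a mitochondrial kinase (log2 2.42, SE 0.22, edgeR adjusted p = 5.7e-06), TK1, the cytosolic thymidine kinase (1.31, SE 0.11, adjusted p = 3.2e-06), and TK2, its mitochondrial counterpart (1.28, SE 0.17, adjusted p = 7.8e-05). Among 11 genes of deoxynucleotide and pyrimidine supply, DHODH, which makes orotate, was called lower (−1.34, SE 0.12, adjusted p = 5.7e-06), as were 3.12% of all genes. In MOLM13 the same supply list had 4 of 11 called lower and 1 higher after daunorubicin (5.71% and 11.3% of all genes), at a list median of −0.54 beside 0.07 over all genes. TYMS (−1.52), CAD (−1.30) and CTPS1 (−1.21) were among those called lower. The one called higher was RRM2B, the p53-inducible small subunit that can stand in for RRM2, at 465, 452 and 429 CPM after daunorubicin, against 214, 256 and 213 CPM in DMSO. DTYMK, the thymidylate kinase (−1.62), was the 1 kinase called there, and of 7 nucleotidases and hydrolases tested 2 were called lower, DCTPP1 (−1.38) and DUT (−1.28). Of 15 S phase genes 13 were called lower in MOLM13 after daunorubicin and 13 after the combination, at medians of −2.11 and −1.98 (5.71% and 5.61% of all genes called lower), against 0 after cytarabine by edgeR, where 0 also passed at the false discovery rate. In HL60 1 of the 15 was called with cytarabine, CCNE2 (2.13, SE 0.21, edgeR adjusted p = 9.5e-06). In OCIAML3 0 of 15 passed with all libraries, and without the 2 libraries 12 passed lower with daunorubicin (16% of all genes) and 13 with both drugs (21.6%), 1 of them called each time (0.539% and 1.96%).

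In DMSO, SLC28A3, a concentrative nucleoside transporter, had 3.79, 6.16 and 4.31 CPM in HL60 and at most 0.0361 CPM in any OCIAML3 or MOLM13 library. SLC29A4, the fourth equilibrative family member, had 23.1 to 24.0 CPM in OCIAML3 and 9.04 to 11.5 CPM in MOLM13, against 0.0743 to 0.265 CPM in HL60. NT5E, the surface nucleotidase CD73, had 30.3 to 32.9 CPM in OCIAML3 and at most 0.0670 CPM in the other lines, and NT5C3B, another nucleotidase, had 68.3 to 71.6 CPM in OCIAML3, 0.904 to 2.04 CPM in MOLM13 and at most 0.0743 CPM in HL60. RRM2B had 122 to 137 CPM in OCIAML3, 213 to 256 CPM in MOLM13 and 25.5 to 28.8 CPM in HL60. It ran opposite to RRM2 between OCIAML3 and HL60 (log2 2.27, SE 0.09, edgeR adjusted p = 1.1e-09), and it rose in OCIAML3 without the 2 libraries after daunorubicin (1.04, SE 0.09, adjusted p = 0.00044) and the combination (1.20, SE 0.10, adjusted p = 0.00025).

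Counts of a gene are sums over its transcripts, and how they split was an estimate. Most RRM2 TPM in HL60 and OCIAML3 in DMSO was assigned to a transcript of 3271 bases annotated as a retained intron, and protein-coding transcripts held 17.6% in OCIAML3, 37.5% in MOLM13 and 15.9% in HL60. All 31-base words of the main coding transcript of 3258 bases are also in that transcript, so the 2 can hardly be told apart by reads. With coding transcripts alone, RRM2 after daunorubicin in MOLM13 had the same log2 fold change of −2.67 but did not pass (edgeR adjusted p = 0.070), nor did it after the combination (−1.71, adjusted p = 0.21) or in DMSO between OCIAML3 and HL60 (−1.33, adjusted p = 0.076). After cytarabine in HL60 it was called (1.97, adjusted p = 0.00032). In SAMHD1 retained-intron transcripts held 23.0% after daunorubicin and 23.0% after the combination, against 14.8% in DMSO, in MOLM13. DCK overlaps MOB1B on the same strand, whose count reached 191% of that of DCK, and SLC29A2 overlaps the antisense B4GAT1-DT, whose count reached 135% of it where SLC29A2 is near 1 CPM. The libraries are unstranded, so reads of SLC29A2 and B4GAT1-DT on shared bases cannot be told apart.

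The genes most like each member over the 12 group means were sought among 14091 genes by Pearson's r of log2 CPM, as a description over groups that share lines. SAMHD1 was nearest to PLD3 (r = 0.999), DCK to ATAD5 (r = 0.992), RRM2 to TMEM106C (r = 0.996) and BRCA2 (r = 0.995), RRM1 to CDC25B (r = 0.992), SLC29A1 to CENPX (r = 0.992) and SLC29A2 to CDADC1 (r = 0.997). The least matched members were CMPK1, nearest to SPCS3 (r = 0.970), and CDA, nearest to MCEMP1 (r = 0.974).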

How the data were processed

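RNA was taken from 3 cell lines in 12 groups of 3 samples. The authors quantified reads with Salmon 1.8.0 against GRCh38 transcripts after FastQC 0.11.9, per the submitters' notes, and deposited estimated counts per transcript, not normalized, together with TPM and the effective length of each transcript (another deposited column, used for a length offset). The Ensembl release is not given in the sources used here. The study's own tests used edgeR 3.38.1.

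Of 252199 transcripts 235378 matched 59041 genes of GENCODE 44, and 16821, holding 3.99% to 4.52% of the counts, were left out. Counts were summed per gene and rounded, kept where edgeR's filterByExpr found enough of them (at least 10 in the smallest group and 15 in all), normalized by TMM and tested with edgeR 4.0.16 under R 4.3.3 by glmQLFit (legacy) and glmQLFTest, in the 12 libraries of a line, the 9 DMSO libraries or all 36. Adjusted p-values are Benjamini-Hochberg over all genes tested. A standard error is the size of the log2 fold change over the square root of F. CPM and TPM of a gene are sums over its transcripts, and TPM ratios add a pseudocount of 0.01. Replicate pairs within a group (36) differed by a chi-square per gene of 6.81 to 181, so none repeated another library of its group. Libraries of different groups were not compared in this way. Counting intervals are exact (Clopper-Pearson), at 95%.

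Replicate numbers were shared between treatments. The correlation of same-numbered samples' deviations was 0.127 to 0.295 in HL60, over 0.1 for every pair, so there the numbers pair the samples from the data, and 0.0276 to 0.201 in MOLM13 and −0.171 to 0.376 in OCIAML3. The reported HL60 tests hold no replicate block and so leave the HL60 pairing out. With the block, CDA in HL60 after daunorubicin gained a call. Every member is named, and from each list up to 4 called genes by size, chosen from the lists, apart from ELANE and the DMSO levels of the list genes, which were picked for their values. Other called list genes enter the counts, and 1 result is not reported here. The members and lists were chosen with earlier results of these data known. The fits were tested on simulated data. DESeq2 1.42.0 and the other alternatives are in the closing section.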

Additional observations from a re-analysis of the deposited data

Results flagged for a closer look

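Each value here is a log2 difference between 2 lines in the change of a gene after the same treatment, taken up because edgeR's interaction test over all 36 libraries passed at a false discovery rate under 0.05. After cytarabine, the change against DMSO in MOLM13 minus that in HL60 was 0.38 for CMPK1 (SE 0.09) and −3.44 for CDA (SE 1.01). After cytarabine, the change against DMSO in OCIAML3 minus that in HL60 was 0.35 for CMPK1 (SE 0.09) and −4.45 for CDA (SE 0.93). After cytarabine, the change against DMSO in OCIAML3 minus that in MOLM13 was −0.65 for SAMHD1 (SE 0.18). After daunorubicin, the change against DMSO in MOLM13 minus that in HL60 was −2.73 for SLC29A1 (SE 0.42), −1.07 for SLC29A2 (SE 0.29), −0.90 for DCK (SE 0.19), −3.46 for CDA (SE 1.11), −0.42 for DCTD (SE 0.10), −1.97 for RRM1 (SE 0.47) and −2.91 for RRM2 (SE 0.75). After daunorubicin, the change against DMSO in OCIAML3 minus that in MOLM13 was 1.89 for SLC29A1 (SE 0.41), 1.42 for SLC29A2 (SE 0.35), 0.76 for DCK (SE 0.19) and −0.68 for SAMHD1 (SE 0.18). After the combination, the change against DMSO in MOLM13 minus that in HL60 was −1.71 for SLC29A1 (SE 0.41), −1.44 for DCK (SE 0.19), −4.68 for CDA (SE 1.02), −2.40 for RRM1 (SE 0.48) and −3.63 for RRM2 (SE 0.76). After the combination, the change against DMSO in OCIAML3 minus that in HL60 was 1.09 for SLC29A2 (SE 0.35), −0.57 for DCK (SE 0.19), 0.32 for CMPK1 (SE 0.09), −4.48 for CDA (SE 0.92) and −1.97 for RRM2 (SE 0.74). After the combination, the change against DMSO in OCIAML3 minus that in MOLM13 was 1.81 for SLC29A1 (SE 0.41), 1.14 for SLC29A2 (SE 0.35), 0.87 for DCK (SE 0.19), −0.71 for SAMHD1 (SE 0.18) and 1.41 for RRM1 (SE 0.47). Among them CMPK1 and CDA alone differed after cytarabine between HL60 and each other line, and SAMHD1 alone between OCIAML3 and MOLM13. The CDA values rest on 0, 1 and 3 counts in HL60 DMSO. Groups of 3 libraries are too small for a test of single outlying libraries.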

How the results depend on the processing

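Alternatives changed 1 choice at a time: DESeq2, RLE normalization, the newer quasi-likelihood fit, no filter or a stricter filter on low counts, all 36 libraries in a fit, a transcript length offset, protein-coding transcripts alone, the replicate number as a block, the threshold, each library left out in turn, OCIAML3 without the 2 libraries cytarabine replicate 3 and combination replicate 3, and, chosen after seeing the data, without daunorubicin replicate 3 as well. Of 6774 alternative values of the 210 gene results (54 called), 6531 stayed on the same side of the call, 151 lost a call, 92 gained one and 0 reversed. Another 61 values with no call changed sign. DESeq2 gave no adjusted p for RRM2 in MOLM13 after daunorubicin or the combination, and these stay out of the counts. Calls were lost by 27 of 54 called results under some alternative, 16 of them under the loss of 1 library. The number of the 10 genes called changed by over 1.5 times as follows. With no threshold on size it was 7, 1 and 8 in HL60 after cytarabine, daunorubicin and the combination (1, 0 and 3 as reported), 3 and 8 in MOLM13 after cytarabine and the combination (0 and 5), and 9, 8 and 10 in DMSO for OCIAML3 over HL60, OCIAML3 over MOLM13 and MOLM13 over HL60 (4, 3 and 1), since that threshold was removed. In HL60 after daunorubicin it was 1 under DESeq2, no filter, the replicate block and all 36 libraries, each time CDA. With coding transcripts alone it was 3 in HL60 after cytarabine, and with a length offset 2 for MOLM13 over HL60 in DMSO. Without the 2 or the 3 libraries it was 1 and 2 in OCIAML3 after daunorubicin and the combination (0 and 0). In MOLM13 after daunorubicin (6) it stayed within 1.5 times, at 8 with no threshold on size, 4 under DESeq2 and 5 under RLE, no filter, coding transcripts or all 36 libraries. Interaction counts for cytarabine were 1 for MOLM13 minus HL60 under the newer fit, coding transcripts or a size over 1 (2 as reported), 1 for OCIAML3 minus HL60 with no filter or a size over 1 and 4 with the block (2), and 0 for OCIAML3 minus MOLM13 with a size over 1 (1). For daunorubicin they were 4 for MOLM13 minus HL60 with coding transcripts (7) and 2 for OCIAML3 minus MOLM13 with a size over 1 (4). For the combination they were 3 for OCIAML3 minus HL60 with a length offset, coding transcripts or a size over 1 (5), and 3 for OCIAML3 minus MOLM13 with coding transcripts, a size over 1 or without the 2 or the 3 libraries (5). The cause was not tested unless named. Leaving out each library in turn gave 1 to 3 calls in HL60 after cytarabine, 0 to 1 after daunorubicin, 5 to 6 and 3 to 5 in MOLM13 after daunorubicin and the combination, 0 to 1 and 0 to 2 in OCIAML3, and 0 to 2 for MOLM13 over HL60 in DMSO. The interaction counts ran 1 to 2, 2 to 3 and 0 to 1 for cytarabine (MOLM13 minus HL60, OCIAML3 minus HL60, OCIAML3 minus MOLM13), 6 to 7 and 3 to 6 for daunorubicin (MOLM13 minus HL60, OCIAML3 minus MOLM13), and 3 to 6 and 3 to 6 for the combination (OCIAML3 minus HL60, OCIAML3 minus MOLM13). The other counts did not move. In MOLM13 and OCIAML3, where the numbers do not pair the samples, the replicate block left the counts within a line as they were or within 1.5 times. Where 1 library lost or gave a call within a line it is named with the result. Depth limits CDA, with under 10 counts in 13 of 36 libraries.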
